A study of Mus musculus with 24 samples.

Results

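The 7 genes described here encode enzymes of heme synthesis, taken in pathway order as Alas2, Alad, Uros, Urod, Cpox, Ppox and Fech. They were taken by name, for their place in the pathway, from 21938 protein-coding genes of the annotation. Earlier results of these data were known when they were chosen, so the shares of all genes given beside their counts are a description. Protein-protected sites (PPSs) were assigned to a gene when they touched its mm10 gene body by 1 nt or more on the gene's own strand. This gave 538 of the 460777 PPSs in the lists of the 3 time points. After PPSs of 20 to 40 nt were set aside as ribosome-sized, 427 of 356432 remained, and all values below refer to these unless another length is stated. Every one of the 7 genes carried PPSs on every day, but Uros carried none in its exons at day 0.

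The PPSs come from protein interaction profile sequencing (PIP-seq) of MEL cells, a murine erythroleukemia line arrested at an early erythroid stage, grown in suspension and induced to differentiate with 2% DMSO. Cells were collected at day 0 (before DMSO), day 2 and day 4 and crosslinked with formaldehyde, with 2 biological replicates per day. RNA was digested either with a nuclease specific to single-stranded RNA (ssRNase, RNaseONE) or with one specific to double-stranded RNA (dsRNase, RNaseV1), before proteins were removed in the footprinting libraries and after their removal in the structure only libraries. The 24 libraries thus form 12 groups of 2 replicates, and the contrast of footprinting against structure only within each day, nuclease and replicate gave 12 sets of calls. All groups share the 1 cell line, so nothing here speaks for primary erythroblasts.

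Heme is built from glycine and succinyl-CoA by a chain of enzymes that begins and ends in mitochondria and runs through the cytosol in between. In erythroid cells the first step is taken by the erythroid form of aminolevulinate synthase, and the mRNA of that enzyme is a textbook target of the iron regulatory proteins, which hold back its translation when iron is short by binding a stem-loop, the iron-responsive element, in the 5′ UTR. The product is needed in large amounts because each globin chain carries a heme group.

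The following stretches are shown because the results turn on them: the iron-responsive element of Alas2, codons whose protection differed between days, and boundaries of exons and introns that lay inside a strong PPS at day 4. All were read 5′ to 3′ on the gene's strand from the GRCm38 genome of RefSeq, the build that mm10 names, and are at most 30 bases long. Capitals mark the loop of the iron-responsive element in the first line, the codon in the lines on codons, and the bases of the exon in the lines on boundaries; the stretch from the middle of a PPS has no capitals.
Alas2 iron-responsive element, chrX:150547455-150547484, plus strand: tctttggttcgtcctCAGTGCagggcaaca
Alas2 stop codon, chrX:150570474-150570503, plus strand: gttaccacctatgctTAAggagccagctgc
Uros stop codon, chr7:133686967-133686996, minus strand: ccaaaccactgttgcTGAgggctgtgcaga
Cpox start codon, chr16:58670413-58670442, plus strand: cagtcccggcgggagATGgccttgcggctg
Ppox stop codon, chr1:171277045-171277074, minus strand: acagaatctaacagcTGAcaagccccctgt
Alas2 start of exon 7, chrX:150560719-150560748, plus strand: catctgtttcctcagGGTGTGAGATCTACT
Alad end of exon 2, chr4:62514059-62514088, minus strand: TCCCATCTTTGTCACgtgagtcccccaaat
Ppox start of exon 4, chr1:171280241-171280270, minus strand: gcttgtggagaacagGTTTCTGAACTTGGC
Urod exon 2, middle of its strongest PPS of day 2, chr4:116993625-116993654, minus strand: gcagcctggggagaggaaacagactatact

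Exonic coverage, the percentage of a gene's annotated exonic nucleotides that lay in a PPS, was higher at day 4 than at day 0 in every pair of replicates for 6 of the 7 enzymes and lower in every pair for 1, Cpox. Among 9550 protein-coding genes with an exonic PPS on any day, 30.8% were higher in all pairs and 25.4% were lower in all pairs. The median change over the 7 enzymes was 11.4 points, with a range of 9.19 to 14.1 over the 4 replicate pairs, while the median over the 9550 genes was 0.0684 points. The mean over the 7 enzymes was 8.54% and 8.73% in the replicates of day 0, 15.2% and 15.7% at day 2, and 21.3% and 19.7% at day 4. With both replicates combined, the mean was 10.9%, 19.3% and 23.9% for the 7 enzymes and 9.07%, 7.81% and 9.11% for the 9550 genes.

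From day 0 to day 2, 5 of the 7 were higher in all pairs (Alad, Uros, Urod, Ppox and Fech), against 22.3% of genes. From day 2 to day 4, 4 of the 7 were higher in all pairs (Alas2, Urod, Ppox and Fech), against 33.8% of genes, and Cpox was the 1 that was lower in all pairs, against 19.3%. The median changes of the 7 were 5.82 points for the first interval and 4.81 points for the second, beside -0.20 and 0.40 points over all genes tested. These separations rested on single call sets for several genes. When each of the 12 call sets was left out in turn, every change from day 0 to day 4 kept its sign, but 5 of the 7 enzymes (all but Uros and Fech) no longer separated in all pairs without 1 call set, named beside each below. Leaving out a call set leaves that replicate with 1 nuclease against 2 elsewhere. For the first interval, 1 enzyme remained higher in all pairs without the day 2 ssRNase calls of replicate 1 and 2 without those of replicate 2. For the second interval the median was -2.10 points without the day 4 ssRNase calls of replicate 2 and -0.07 points without the day 4 dsRNase calls of replicate 2, so its direction was not stable.

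No p-value is given, since an exact two-sided permutation test of 2 against 2 replicates cannot go below 0.333. Replicates of a day also share merged PPS coordinates, so their spread is an underestimate.

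**Figure D1:**
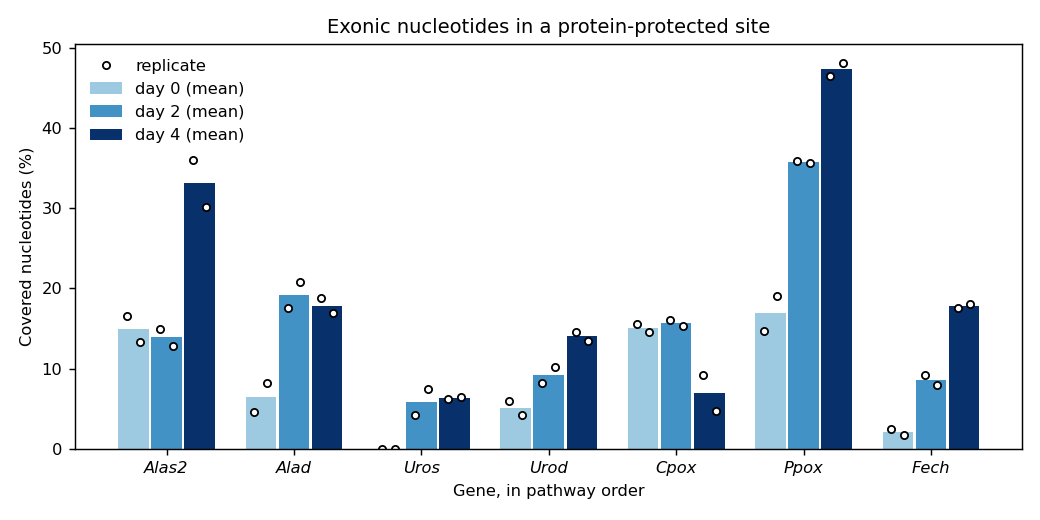
Exonic coverage of each enzyme (percentage of exonic nucleotides in a PPS, both nucleases) at day 0, day 2 and day 4. Bars are means of 2 replicates and open circles are the replicates; 6 enzymes sit higher at day 4 than at day 0 in both replicates and Cpox sits lower.

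PPS calls reflect both the RNA and the protein on it. Transcript abundance was not analysed here, so more sites on a gene and more RNA from it cannot be told apart from the PPS lists alone. In bulk samples, fewer cells of a type and less RNA per cell cannot be told apart either. The call sets were also uneven in strand: the plus strand held 66.9% of the PPSs with an ssRNase call of replicate 2 at day 0 and 43.3% at day 4, and 49.8% to 51.8% in the other 10 call sets. They were uneven in size too, from 14832 PPSs for dsRNase in replicate 2 of day 2 to 73952 for ssRNase in the same replicate. Alas2 and Cpox lie on the plus strand and the other 5 enzymes on the minus strand, where 36.1% of genes were higher at day 4 in all pairs against 25.7% of genes on the plus strand. Lower in all pairs were 29.1% of genes on the plus strand, that of Cpox, and 21.6% of genes on the minus strand. Replicate 1 alone leaves out both uneven call sets, and its changes from day 0 to day 4 lay between -6.34 points for Cpox and 31.9 points for Ppox. It is 1 of the 4 replicate pairs, which shared a sign for each enzyme, so it gives sizes and no separate check of direction. Of the markers examined, 5, 6 and 7 of 7 erythroid genes had exonic PPSs at day 0, day 2 and day 4, with coverage of Hbb-bs at 10.4%, 40.5% and 78.9% and of Klf1 at 20.1%, 36.7% and 22.4%. Exons of 4 neutrophil and macrophage markers and 3 lymphoid markers had no PPS on any day, whereas 2 of 3 megakaryocyte markers, Pf4 and Itga2b, and 3 of 4 progenitor markers had PPSs on all days. Coverage of the progenitor markers was lower at day 4 than at day 0, with 18.9%, 4.97% and 1.93% for Myb, 41.6%, 33.6% and 31.0% for Myc and 20.2%, 11.8% and 12.1% for Cdk6, while Kit had none. The 2 megakaryocyte markers with PPSs went different ways, with 31.2%, 6.93% and 11.5% for Pf4 and 37.9%, 37.1% and 44.2% for Itga2b. The part of these shifts in the values of the 7 enzymes was not tested.

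Alas2, which encodes the erythroid aminolevulinate synthase that starts the pathway, lies at chrX:150547375-150570638 on the plus strand. Its exonic coverage was 16.5% and 13.3% in the replicates of day 0, 15.0% and 12.8% at day 2 and 36.1% and 30.2% at day 4. The days 0 and 2 overlapped, and both day 4 replicates lay above all earlier ones. The change from day 0 to day 4 was 18.2 points (13.7 to 22.8 over the pairs), and 1.61% of the genes tested changed by as much or more. It was 10.0083 points (-2.75 to 22.8) without the day 4 dsRNase calls of replicate 2, when the replicates overlapped, and 8.76 points without those of replicate 1. The number of PPSs on the gene was 8, 20 and 48 on the 3 days.

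The position of protection along the Alas2 mRNA also differed. Its 11-exon transcript showed CDS coverage of 25.3% at day 0, 23.1% at day 2 and 38.1% at day 4 with both replicates combined. The 150 nt from the stop codon to the end of the mRNA had no coverage at day 0 or day 2, and 17.3% and 62.0% in the day 4 replicates; with PPSs of all lengths and both replicates combined, the values were 0%, 26.0% and 78.0%. The last 100 nt of the CDS were covered to 30%, 72.0% and 100% on the 3 days, and the stop codon shown above lay in a PPS at day 4 only. With both replicates combined, 3 of the 11 exons went the other way and were lower at day 4 than at day 0. Exon 3 had 57.7% at day 0, 77.2% at day 2 and 0% at day 4, exon 4 had 44.1%, 0% and 18.9%, and exon 5 had 41.3%, 27.4% and 2.69%. The day 0 value came from replicate 1 only for exon 3 and from replicate 2 only for exon 4. Exon 7 had 53.9%, 0% and 91.7%. The zeros came with the length filter, since with PPSs of all lengths exon 3 had 22.0% at day 4, and exons 4 and 7 had 18.9% and 38.3% at day 2.

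The strongest PPS of Alas2 differed in place between days. At day 0 it covered 92 nt of exon 5 (chrX:150557214-150557305, score 22.3), at day 2 it covered 95 nt of exon 3 (chrX:150552959-150553053, score 28.6), and at day 4 it covered 233 nt across the start of exon 7 (chrX:150560658-150560890, score 81.8). The score is the enrichment value of the authors, in which merged calls appear to add up. The day 4 site held calls of both nucleases in both replicates.

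The loop of the iron-responsive element in the Alas2 5′ UTR was not inside a PPS of any length on any day. The element was found as a word on the sense strand of the spliced mRNA, made of a C, 5 positions of any base, the letters CAGTG and 1 further base, at chrX:150547464-150547475 in exon 1. The same word occurred in the 5′ UTR of 8.19% of 20429 protein-coding genes, so a match is a description of letters only. Exon 1 had no coverage on any day, and the part of the 5′ UTR inside a PPS was the last 15 nt before the start codon, in exon 2. In the other enzymes the word was found in the 5′ UTR of Fech, where a PPS of day 4 reached 8.33% of its 12 positions and none did earlier, and at 8 places in coding or 3′ UTR sequence of Alas2, Alad, Uros, Cpox and Fech.

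Alad, which encodes aminolevulinate dehydratase, the enzyme that joins aminolevulinate into a pyrrole ring, lies at chr4:62509169-62519918 on the minus strand. Exonic coverage was 4.65% and 8.18% at day 0, 17.5% and 20.8% at day 2 and 18.8% and 16.9% at day 4. Days 2 and 4 overlapped and both lay above day 0. Between day 0 and day 4 it differed by 11.4 points (8.77 to 14.1), or by 6.95 points (-0.21 to 14.1) without the day 4 ssRNase calls of replicate 2. The change from day 0 to day 2 was 12.7 points (9.35 to 16.1), and 0.848% of genes changed by as much or more. With dsRNase calls alone that change was 4.04 points (-1.18 to 9.25), and over the exons of the longest-CDS transcript 3.33 points (-1.76 to 8.42), with overlap of the replicates in both. Without the day 2 ssRNase calls of replicate 1 the replicates overlapped as well (7.48 points, -1.18 to 16.1), and without those of replicate 2 or the dsRNase calls of replicate 2 the change was 6.97 and 8.12 points.

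Within the Alad mRNA the covered stretches moved between days. Exon 9 was covered to 98.9% at day 0 and not at all later, or to 98.9%, 0% and 40.9% with PPSs of all lengths. Exon 3 was covered to 0%, 82.4% and 21.6%, and exon 10 to 80.5% at day 4 and not before. The 5′ UTR, in which no PPS lay at days 0 and 2, was covered to 21.3% in both day 4 replicates. The strongest PPS of the whole gene at day 4 (chr4:62513804-62514093, 290 nt, score 93.9) ran from the end of exon 2 into intron 2, and it held calls of both nucleases in both replicates. It included the site of 97 nt in intron 2 that was strongest at day 2 (chr4:62513977-62514073, score 35.6).

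Uros, which encodes uroporphyrinogen III synthase, the enzyme that closes the ring, lies at chr7:133686243-133710072 on the minus strand. No exonic nucleotide lay in a PPS in either replicate of day 0. Exonic coverage was 4.17% and 7.47% at day 2 and 6.26% and 6.40% at day 4, so that days 2 and 4 overlapped above day 0. The exonic PPSs of day 2 held ssRNase calls only, and dsRNase coverage was 2.10% and 1.17% at day 4 and 0% before. Day 4 lay 6.33 points above day 0 (6.26 to 6.40), or 3.72 points without the day 4 ssRNase calls of replicate 2. Without the day 2 ssRNase calls of either replicate, that replicate had no exonic PPS at day 2. Uros carried few sites, with 1, 7 and 8 PPSs on the gene.

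The Uros sites of days 2 and 4 lay in partly different places. Exons 2 and 3 were covered to 30.7% and 72.6% at day 2 and to 0% at day 4, and exons 6 and 7 to 56.0% and 49.4% at day 4 and to 0% at day 2. With PPSs of all lengths, exon 2 had 16.4% at day 4 and exon 7 had 18.5% at day 2. The stop codon shown above lay in a PPS of day 2 that had calls of replicate 2 but not of replicate 1. In the first 100 nt of the 3′ UTR, coverage was 0%, 22.0% and 59.0% on the 3 days. A site in intron 6 was present on all days and was the strongest of the gene at day 0 (score 6.82) and at day 2 (score 36.9).

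Urod, which encodes uroporphyrinogen decarboxylase, lies at chr4:116989965-116994413 on the minus strand. Exonic coverage was 5.98% and 4.21% at day 0, 8.22% and 10.2% at day 2 and 14.6% and 13.4% at day 4, with no overlap between any of the days. Day 4 lay 8.92 points above day 0 (7.41 to 10.4), a size reached by 6.35% of genes. With ssRNase calls alone it was 3.49 points (-1.04 to 8.03). Without the day 4 dsRNase calls of replicate 2 it was 3.63 points (-3.16 to 10.4), and without those of replicate 1 it was 5.62 points. Both shorter intervals were less stable. Between day 0 and day 2 the replicates overlapped with PPSs of all lengths, with ssRNase calls alone, and without the day 2 dsRNase calls of either replicate or the ssRNase calls of replicate 1, and the change of 4.11 points went down to 0.965. Between day 2 and day 4 they overlapped with ssRNase calls alone and without the day 4 dsRNase calls of either replicate or the ssRNase calls of replicate 1, and the change of 4.81 points went down to -0.48. With PPSs called in both replicates, the change from day 0 to day 2 was 0.0386 points.

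Exon 2 of Urod went from 7.96% covered at day 0 to 89.4% at day 2 and 100% at day 4, when both replicates covered all 113 nt of it; the stretch from its middle is printed above. With PPSs of all lengths it had 43.4% at day 0, so much of the low value of that day came with the length filter. Exon 5 was covered to 27.8% at day 0 and not later, or to 55.1%, 11.1% and 0% with all lengths. Exon 8 held the strongest PPS of day 0 (chr4:116991386-116991485, 100 nt, score 13.2) and was covered to 92.1%, 52.5% and 92.1% on the 3 days. In the longest-CDS transcript the 5′ UTR and the start and stop codons lay in no PPS on any day.

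Cpox, which encodes coproporphyrinogen oxidase of the mitochondrial intermembrane space, lies at chr16:58670292-58717636 on the plus strand and was the only enzyme with less exonic coverage at day 4 than at day 0. Its coverage was 15.5% and 14.6% at day 0, 16.1% and 15.4% at day 2 and 9.19% and 4.71% at day 4. Days 0 and 2 overlapped, and both day 4 replicates lay below them. The change from day 0 to day 4 was -8.10 points (-10.8 to -5.39), and 6.39% of genes had a change as low or lower. It was -3.29 points (-10.8 to 4.23) without the day 0 ssRNase calls of replicate 2, the call set with the highest share of plus-strand PPSs, so the replicates then overlapped. With dsRNase calls alone the change was -2.57 points (-7.76 to 2.63), so the replicates then overlapped. The number of PPSs was 20, 26 and 13.

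The 5′ end of the Cpox mRNA carried much of the difference. The 136 nt of 5′ UTR were covered to 77.2% and 57.4% in the replicates of day 0, to 62.5% and 0% at day 2, and not at all at day 4. With PPSs of all lengths and both replicates combined, they were covered to 77.2%, 62.5% and 21.3%. The start codon shown above lay in a PPS with calls of replicate 1 at day 0 and day 2, and in none at day 4. Exon 1 was covered to 70.0%, 63.1% and 33.4%, and it held the strongest PPSs of day 0 (chr16:58670545-58670781, 237 nt, score 43.0) and day 2 (chr16:58670481-58670694, 214 nt, score 64.6). At day 4 the strongest PPS lay in the 3′ UTR instead (chr16:58680241-58680330, 90 nt, score 22.8). Exons 2 and 4 went against the others. Exon 2 was covered to 31.3%, 56.9% and 82.6% in replicate 1 and not at all in replicate 2, and exon 4 to 0%, 9.86% and 34.5%, all from replicate 2.

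Ppox, which encodes protoporphyrinogen oxidase of the inner mitochondrial membrane, lies at chr1:171275990-171281186 on the minus strand and had the highest exonic coverage of the 7 at day 4. Coverage was 14.7% and 19.1% at day 0, 35.9% and 35.6% at day 2 and 46.5% and 48.1% at day 4, with no overlap between days. The change from day 0 to day 4 was 30.4 points (27.4 to 33.4), a size reached by 0.44% of genes. It was 10.5 points (-10.9 to 31.9) without the day 4 ssRNase calls of replicate 2, and the change from day 2 to day 4, 11.6 points, was then -8.39 points. Days 2 and 4 also overlapped without the day 4 ssRNase calls of replicate 1 (1.47 points) and with dsRNase calls alone (5.15 points). Days 0 and 2 overlapped without the day 2 ssRNase calls of replicate 1 or of replicate 2, when the change of 18.9 points became 7.65 and 6.47. With dsRNase calls alone the change from day 0 to day 4 was 13.5 points (0.532 to 26.4), and those calls of day 4 ranged from 8.19% in replicate 2 to 26.4% in replicate 1.

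The longest-CDS transcript of Ppox was covered to 41.5%, 55.7% and 78.3% on the 3 days, and its CDS to 52.2%, 67.9% and 92.1%. Of its 13 exons, 1 was covered in full at day 0, 2 at day 2 and 8 at day 4. Exon 6 (145 nt) was at 0% on days 0 and 2 and at 100% in both replicates of day 4. The stop codon lay in no PPS at day 0 and inside one in both replicates of days 2 and 4. The 5′ UTR was covered to 2.48%, 0.311% and 30.4%, whereas the 68 nt of 3′ UTR were highest at day 2, with 0%, 60.3% and 14.7%, or 45.6%, 60.3% and 58.8% with PPSs of all lengths. The strongest PPS of day 4 (chr1:171280140-171280522, 383 nt, score 62.2) spanned exons 3 and 4 and the intron between them, was called with ssRNase in both replicates, and was the longest PPS on any of the 7 genes.

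Fech, which encodes ferrochelatase, the enzyme that inserts iron into the ring, lies at chr18:64452914-64490251 on the minus strand. Exonic coverage was 2.46% and 1.70% at day 0, 9.26% and 7.91% at day 2 and 17.6% and 18.1% at day 4, with no overlap between days. Day 4 lay 15.7 points above day 0 (15.1 to 16.4), a size reached by 2.23% of genes. The replicates of day 0 and day 4 stayed apart whichever call set was left out, whereas those of days 0 and 2 overlapped without the day 2 ssRNase calls of replicate 2 (2.94 points) and those of days 2 and 4 without the day 4 ssRNase calls of replicate 2 (4.64 points). Fech had 10, 53 and 78 PPSs, the most of the 7 at days 2 and 4. None of the 10 PPSs of day 0 had calls of both replicates, against 20 of 53 at day 2 and 38 of 78 at day 4.

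On Fech the 5′ UTR went from 0% at day 0 to 30.1% in each replicate of day 2 and 71.4% in each replicate of day 4. The CDS was covered to 18.4%, 26.0% and 35.5%, and the 5172 nt of 3′ UTR to 4.78%, 12.7% and 13.4%. The start codon lay in a PPS in both replicates of days 2 and 4 and in none at day 0. The strongest PPS of day 0 lay in the 3′ UTR (chr18:64457808-64457859, score 13.5), while the strongest of day 2 (chr18:64485684-64485767, score 45.4) and of day 4 (chr18:64482193-64482319, score 58.7) lay in introns 1 and 2 of the longest-CDS transcript. The site in intron 2 is exonic in another annotated transcript.

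**Figure D2:**
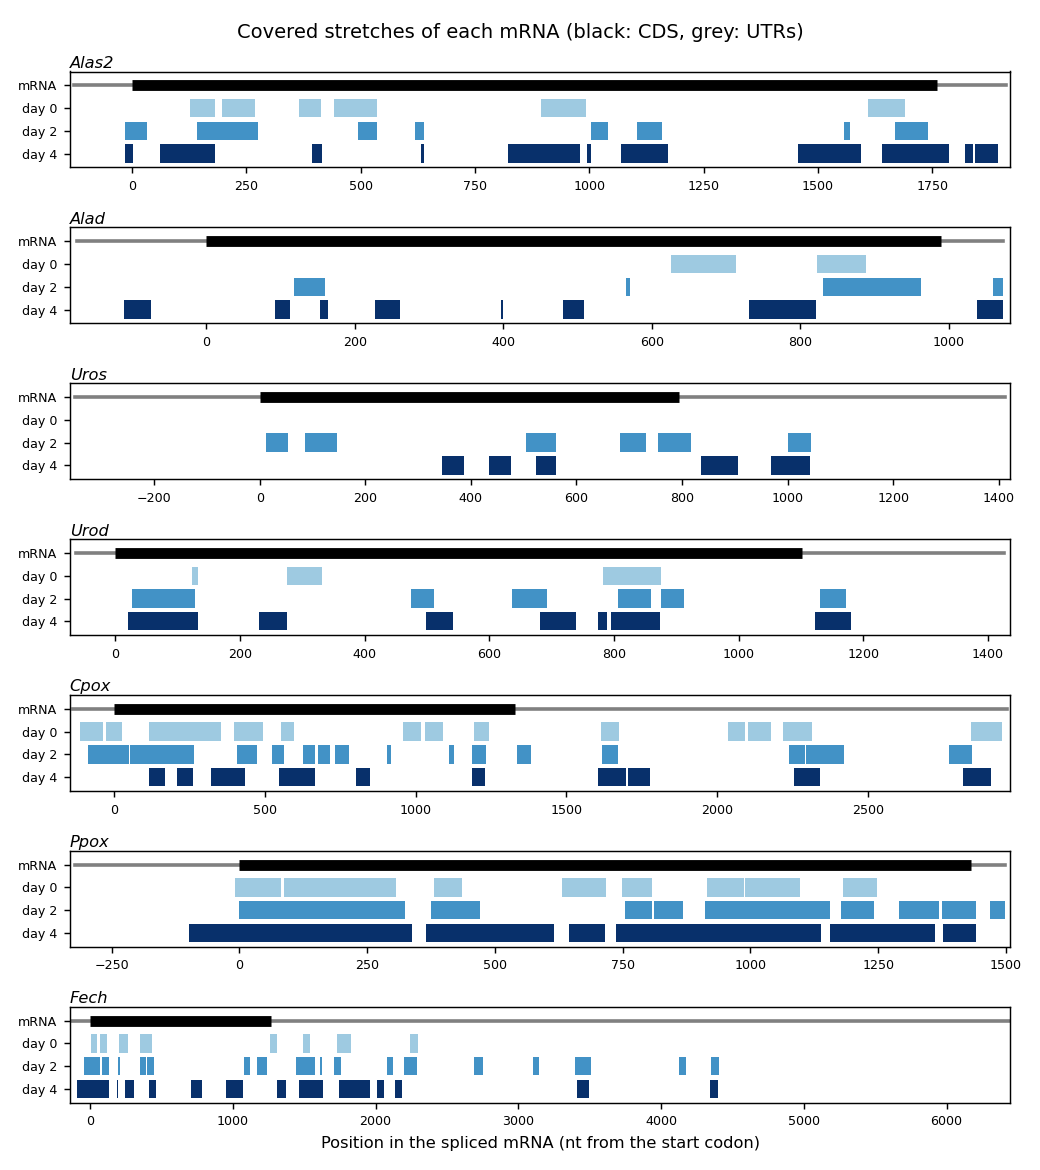
Stretches of each spliced mRNA (longest-CDS transcript) inside a PPS at day 0, day 2 and day 4; the x axis is the position in nt from the start codon, the black bar the CDS and the grey line the UTRs. Ppox is covered over 92.1% of its CDS at day 4, the Cpox start codon lies in a PPS at days 0 and 2 and not at day 4, and Uros has no PPS at day 0.

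The nucleases were compared side by side because one cuts single-stranded and the other double-stranded RNA. From day 0 to day 4, ssRNase coverage was higher in all pairs for 5 enzymes (Alas2, Alad, Uros, Ppox and Fech), against 22.2% of genes, and dsRNase coverage for 5 (Alas2, Uros, Urod, Ppox and Fech), against 27.2% of genes. The median change of the 7 was 11.1 points with ssRNase and 6.83 points with dsRNase, beside 0 and 0.0932 points over all genes. These are medians of the mean changes. Medians of single replicate pairs ran from 7.27 to 10.1 points with ssRNase and from 1.17 to 9.59 with dsRNase, so the nucleases overlapped. No enzyme moved in opposite directions in all pairs of both nucleases. The change of Alas2 was 12.7 points with ssRNase (8.32 to 17.1) and 20.1 points with dsRNase (12.1 to 28.0), and that of Ppox was 27.5 (23.8 to 31.1) and 13.5 (0.532 to 26.4), with ranges that overlapped for both genes. The ranges did not overlap for Uros, at 4.70 points with ssRNase (4.17 to 5.23) and 1.64 with dsRNase (1.17 to 2.10). At day 0 the coverage of Alas2 came mostly from dsRNase calls, with 16.5% and 7.87% against 0% and 5.45% for ssRNase, and that of Ppox from ssRNase calls, with 14.7% and 18.2% against 0% and 7.66%.

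**Figure D3:**
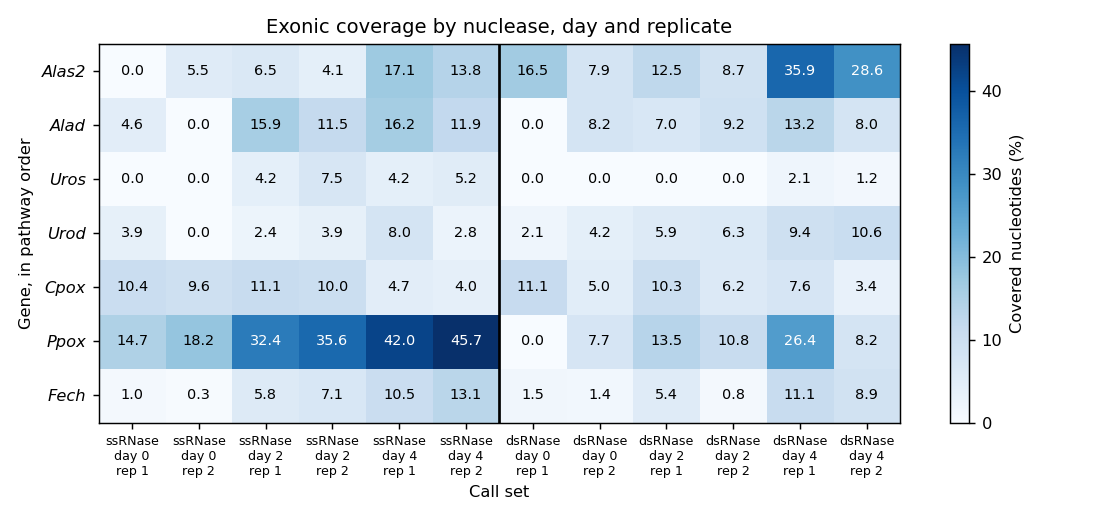
Exonic coverage (percent, printed in each cell and shown as colour) of the 7 enzymes in each of the 12 call sets, ssRNase on the left and dsRNase on the right. Ppox is highest with ssRNase at day 4 (42.0% and 45.7%), Alas2 with dsRNase at day 4 (35.9% and 28.6%), and Cpox is lower at day 4 than at day 0 in both ssRNase replicates.

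The 7 genes differed in their introns. Coverage of intronic nucleotides, counted outside every annotated exon, was higher at day 4 than at day 0 in all pairs for 3 of the 6 enzymes with an intronic PPS, Alas2, Alad and Fech, against 26.9% of 7333 genes with an intronic PPS. The same 3 were higher at day 2 than at day 0 in all pairs, against 26.9% of genes. Ppox, whose annotated transcripts leave 682 nt outside exons, had no intronic PPS by this count.

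Alad had the most intronic coverage, at 1.68% and 0% in the replicates of day 0, 12.8% and 14.01% at day 2 and 34.7% and 29.5% at day 4. The change from day 0 to day 4 was 31.2 points (27.8 to 34.7), a size reached by 0.136% of the genes tested. Alas2 had 0.719% and 0.479% at day 0, 2.45% and 2.73% at day 2 and 12.2% in each replicate of day 4, a change of 11.6 points (11.5 to 11.8) that 0.723% of genes reached. Fech had 0.034% and 0% at day 0, 3.68% and 5.96% at day 2 and 10.8% and 11.5% at day 4, a change of 11.1 points (10.8 to 11.5) that 0.791% of genes reached. In these 3 genes the replicates of no pair of days overlapped, and day 4 stayed above day 0 in all pairs under every alternative tried. Days 0 and 2 of Alas2 overlapped without the day 2 ssRNase calls of replicate 2 and with dsRNase calls alone. Days 2 and 4 of Fech overlapped without the day 4 ssRNase calls of replicate 1 (3.76 points) or of replicate 2 (3.10 points), and without ssRNase of replicate 1 on all days (4.96 points). The gain from day 0 to day 4 was present with each nuclease alone. With ssRNase it was 25.9, 7.30 and 8.81 points for Alad, Alas2 and Fech, and with dsRNase 19.9, 8.54 and 5.35 points.

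By the same count, Uros, Urod and Cpox carried little in their introns. Uros stayed between 0% and 0.686% in all replicates, Urod had 2.69% in 1 replicate of day 4 and 0% elsewhere, and Cpox went from 0.526% and 0.777% at day 0 to 0.192% and 0.133% at day 4. All PPSs of Cpox lay in the first part of the gene body, ahead of the end of its longest-CDS transcript, whereas its 40684 intronic nt reach past that end. Some single introns of the longest-CDS transcripts, which can hold exons of other transcripts, carried more. With both replicates combined, coverage was 17.9%, 20.3% and 6.98% for Cpox intron 1 and 22.7%, 96.2% and 100% for Ppox intron 3 on the 3 days.

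**Figure D4:**
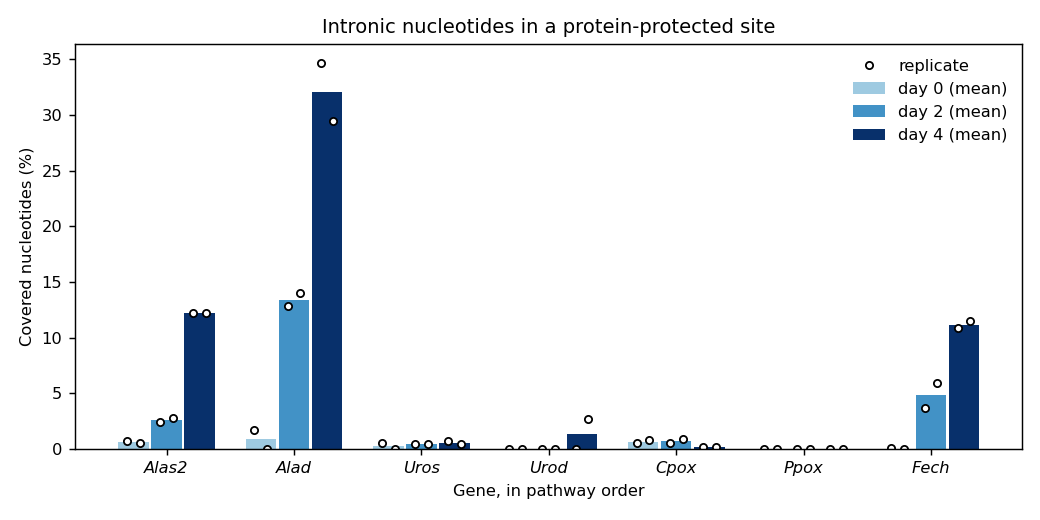
Intronic coverage of each enzyme (percentage of nucleotides outside annotated exons in a PPS, both nucleases) at day 0, day 2 and day 4. Bars are means of 2 replicates and open circles the replicates; Alad reaches 34.7% and 29.5% at day 4, Alas2 and Fech 10.8% to 12.2%, and the rest stay below 3%.

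The intronic sites were spread over many introns. In the longest-CDS transcripts, PPSs touched 1, 6 and 9 of the 10 introns of Alas2 on the 3 days, 2, 8 and 9 of the 11 of Alad, and 2, 8 and 8 of the 10 of Fech. Intron 1 was the longest of each of these genes, and its coverage went from 3.22% to 12.5% and 35.2% in Alas2, from 0.813% to 14.8% and 35.7% in Alad, and from 0.919% to 10.99% and 18.4% in Fech. In Alas2, the sites of intron 1 included one of 136 nt with calls of both nucleases in both replicates of day 4 (chrX:150549656-150549791, score 41.9). In Alad, intron 1 held 4 sites with a score over 30 at day 4, of which the strongest (chr4:62519085-62519316, 232 nt) had a score of 54.3.

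**Figure D5:**
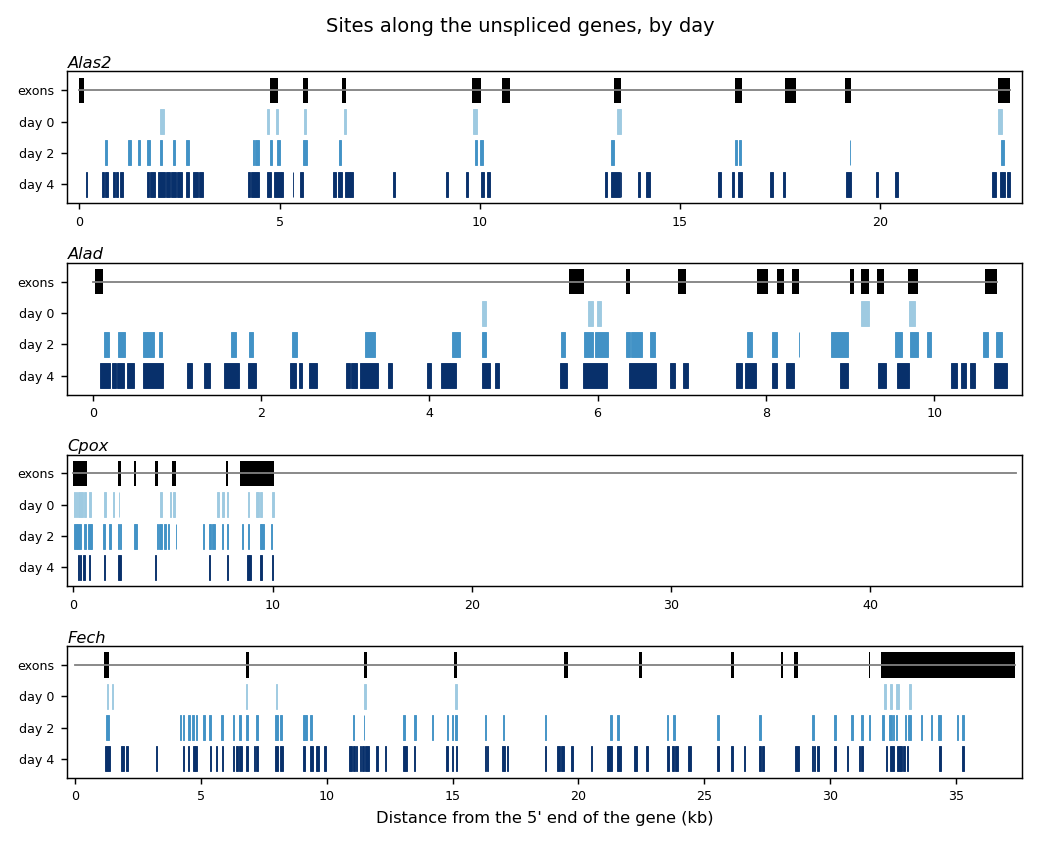
PPSs along the unspliced genes of Alas2, Alad, Cpox and Fech at day 0, day 2 and day 4; the x axis is the distance in kb from the 5′ end of the gene and black boxes are exons of the longest-CDS transcript. Sites between the exons fill in from day 0 to day 4 in Alas2, Alad and Fech, while Cpox shows 20, 26 and 13 sites within the reach of its longest-CDS transcript.

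More boundaries between exons and introns were covered at day 4 than earlier on Alas2, Alad, Ppox and Fech. The share of covered boundaries over all genes is not given. Median PPS length on the 7 genes was 66, 61 and 72 nt on the 3 days, and the part of length or of a general shift between days was not tested. A boundary was counted when a single PPS held the 15 nt on each side of it. At day 0, 0 of 20 boundaries of Alas2, 0 of 22 of Alad and 0 of 20 of Fech were covered. There were 2, 1 and 0 at day 2 and 4, 6 and 3 at day 4. Each replicate of day 4 held 4 of those of Alas2, 6 and 5 of those of Alad and 3 of those of Fech. Ppox had 2 covered boundaries at day 0, 2 at day 2 and 6 at day 4, among 24. Uros, Urod and Cpox had at most 2 on any day. The printed boundaries of Alas2 exon 7 and Alad exon 2 lay wholly in a PPS at day 4 only, and that of Ppox exon 4 on all 3 days.

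Taken over all 7 genes, the sites numbered 58, 157 and 212 on the 3 days, in lists of 114907, 119487 and 122038. Sites that touched no exon made up 10, 64 and 113 of them, and sites that touched an exon 48, 93 and 99. Sites touching the CDS numbered 33, 53 and 54, those touching a 3′ UTR 13, 28 and 27, and those touching a 5′ UTR 6, 5 and 7. When sites of the 3 days were joined by overlap into 259 regions, 103 were of day 4 only, 67 of days 2 and 4, 35 of day 2 only, 34 of all days and 11 of day 0 only. As shares these were 39.8%, 25.9%, 13.5%, 13.1% and 4.25%, beside 20.9%, 9.58%, 19.6%, 14.4% and 19.5% of the 220639 regions joined in the same way from the whole lists. Cpox differed in this count, with 7 of its 31 regions of day 0 only and 2 of day 4 only.

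The share of sites with calls of both replicates was 36.2%, 40.8% and 50.0% on the 7 genes, beside 30.8%, 30.8% and 35.8% in the whole lists. The median length was 66, 61 and 72 nt, beside 63, 58 and 62 nt. The G and C content of the sites was 50.6% ± 11.9 (SD over 58 sites) at day 0, 49.1% ± 10.0 (157 sites) at day 2 and 48.1% ± 9.22 (212 sites) at day 4. The other sites of the lists had 46.3%, 47.6% and 46.1%, which is lower on each day. The SD is a spread over single sites and not the error of a mean, and the difference was not tested.

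PPSs on the other strand were found mostly at Alas2. The strand opposite to Alas2 held 2, 24 and 16 PPSs within its gene body, where Apex2 and Mir3620 are annotated. The opposite strand held 2, 2 and 1 at Uros, 1 PPS of day 4 at Ppox, and none at Alad, Urod, Cpox or Fech. No other gene on the same strand overlapped any of the 7.

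The genes that supply and move the intermediates were read from 3 lists. Of 14 partners of heme synthesis (transporters, scaffolds, the ubiquitous synthase and its protease), all had an exonic PPS, and from day 0 to day 4 coverage was higher in all pairs for 6 and lower in all pairs for 3 (30.8% and 25.4% of all genes), with a median change of 0.678 points beside 0.0684 over all genes. Slc25a37, the mitoferrin that brings iron into erythroid mitochondria, changed by 53.8 points. Tmem14c, a carrier of porphyrin intermediates, went from 15.3% and 34.9% at day 0 to 9.74% and 6.46% at day 2 and 56.9% and 45.3% at day 4. Abcb10, an inner-membrane transporter, went from 7.78% and 3.53% to 15.5% and 15.2% and then to 30.5% and 32.4%.

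Of 8 genes of iron-sulphur cluster assembly, 7 had an exonic PPS. From day 0 to day 4, 3 were higher in all pairs and 1 was lower in all pairs, beside the same 30.8% and 25.4% of all genes, with a median change of 3.14 points. Nfs1, the cysteine desulfurase, went from 1.41% and 1.22% at day 0 to 8.47% and 15.8% at day 4, and Glrx5, a glutaredoxin of the same machinery, from 7.28% and 9.23% to 14.3% and 16.2%. The chaperone Hspa9 went from 31.5% and 29.4% to 17.5% and 15.5%. Of 12 genes of heme export, breakdown and sensing, 10 had an exonic PPS, of which 4 were higher and 2 lower in all pairs, with a median change of 2.91 points. Bach1, a heme-binding repressor, went from 7.23% and 6.70% to 12.1% and 14.2%. Eif2ak1, the heme-regulated kinase of translation, went from 5.59% and 5.31% to 14.1% and 8.48%. Hmox2, a heme oxygenase, went from 11.7% and 15.5% to 7.71% and 4.29%.

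Across the 12 call sets, the 5 genes whose exonic coverage was most like the mean of the 7 enzymes were Tango2 (Pearson r = 0.96), Gpatch8 (0.957), Apol11b (0.948), Rmc1 (0.947) and March2 (0.947), out of 7674 genes considered. The median r of those genes was 0.135. The 12 points share cells, libraries and merged coordinates within a day, so r is a description. The coverage of Apol11b was 0%, 34.1% and 60.9% on the 3 days, and that of Tango2 was 3.57%, 19.7% and 27.3%.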

How the data were processed

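PIP-seq compared footprinting and structure only libraries of MEL cells. The authors trimmed reads (cutadapt 1.2.1), aligned them to mm10 (TopHat2 2.0.10, versions per the submitters' processing notes), collapsed duplicates and called PPSs by a Poisson test in a modified CSAR package. The authors merged the calls of a day into 1 deposited list, with a score per PPS (their enrichment value, at least 5.4) and the names of the merged calls as the other deposited field used. Read counts were not used, so depth is unknown here and no counting interval is given.

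Names were matched to sample titles, which gave 4 call sets a day. A replicate's value came from PPSs with at least 1 call of it. PPSs of 20 to 40 nt were left out. Exonic coverage used the union of exons in GENCODE M21 (GRCm38, to which mm10 corresponds). Regions, windows of 100 nt at codons and boundaries used the transcript with the longest CDS, and 3′ UTRs include the stop codon. Changes are means over 4 pairs of replicates, later minus earlier day. The members and lists were chosen with earlier results of these data known. Named genes were the 7 members, the 3 genes of each list with the largest change and at least 3 PPSs at some day, the 5 genes of at least 500 exonic nt and 3 PPSs most like the members, and the strongest PPS of each member and day. Alternatives varied length, score, replicate support, nuclease, replicates, single call sets and transcript model. The members of the lists that were lower at day 4 are not all reported here by name. Functions were tested on simulated data. Python 3.11.15, numpy 2.4.6, pandas 2.3.3, pysam 0.24.0 and matplotlib 3.10.9 were used.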

Additional observations from a re-analysis of the deposited data

How the results depend on the processing

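Every change from day 0 to day 4 kept its sign for all 7 enzymes under all 30 alternatives. The changes ran from 1.64 points (Uros, dsRNase calls only) to 40.4 points (Ppox) for the 6 that were higher and from -13.8 to -2.57 points for Cpox. Alternatives that left out whole replicates, such as the 6 without 1 replicate of a day and replicate 1 alone, used some of the same pairs. Since all pairs shared a sign, those alternatives could not turn it and are no check of it. Separation of the replicates was less stable. With 1 nuclease of 1 replicate left out on all days (4 alternatives), or 1 of the 12 call sets left out, Alas2, Alad, Urod, Cpox and Ppox each lost it in 1 alternative of either kind. These alternatives and the use of replicate 1 alone were chosen after seeing the strand shares, and those for introns and for both shorter intervals after seeing the data. They leave a replicate with 1 nuclease against 2, so fewer calls enter it.

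From day 0 to day 4 the median of 11.4 points was 6.83 with dsRNase calls only, 14.1 with replicate 1 only, 7.51 on all days without ssRNase of replicate 2, and 7.51 to 15.5 when 1 replicate or call set of a day was left out, with 4 to 6 members higher in all pairs. From day 0 to day 2 the median of 5.82 points was 7.33 with PPSs of all lengths, 2.82 with a score of at least 10 and with calls of both replicates, 1.69 with dsRNase calls only, 4.17 with replicate 1 only, 2.16 without ssRNase of replicate 2 on all days, and 2.16 to 7.24 when 1 replicate or call set was left out. In that interval 5 members were higher in all pairs, against 22.3% of genes, but 2 with dsRNase calls only, against 7.66% of genes. The number was 2 without ssRNase of replicate 1 or of replicate 2 on all days, and 1 to 6 when 1 replicate or call set was left out. For alternatives that leave out replicates or call sets, no share over all genes is given, so such counts have no background.

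From day 2 to day 4 the median of 4.81 points was 2.29641 with ssRNase calls only, 6.41 with replicate 1 only, 2.66 without dsRNase of replicate 2 on all days and 3.38 without ssRNase of replicate 1 on all days. When 1 replicate or call set was left out it ranged from -2.10 (without day 4 ssRNase of replicate 2) to 7.95, and it was -0.0699 without day 4 dsRNase of replicate 2. These call sets also turned Ppox to -8.39 and Urod to -0.482, in this order, while Ppox reached 23.95 and Urod 7.95 without a call set of day 2. In that interval 4 members were higher in all pairs, but 2 without dsRNase of replicate 2, ssRNase of replicate 1 or ssRNase of replicate 2 on all days, and 2 to 5 when 1 replicate or call set was left out. The cause of these shifts was not tested. Of the values for single members under an alternative, exonic and intronic, 982 changes moved by less than the spread between replicates, while 276 moved further. Some of these values could not move. The intronic changes of Ppox in every comparison, and of Urod from day 0 to day 2, were 0 under all 30 alternatives. The counts are therefore no measure of stability. Changes that held in all pairs turned their sign in 2 cases, both given above, and changes that did not hold in all pairs in 62. PPSs of all lengths for single exons and UTRs were added after seeing the data. Depth is unknown, so sites missing on a day may lie below what the calls could detect. No paired analysis was possible because the results come from no test, and nothing in the labels ties a replicate to one of another day.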
